A study of Rattus norvegicus with 12 samples.

Results

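Gene expression in rat dorsal root ganglia 9 h after removal of a piece of the sciatic nerve was compared with that 3 h after it, on 3 arrays per time, 6 of the 12 arrays of a series that also holds 0.5 h and 6 h. A probe entered the comparison only where the scanner software found it well above background on all 12 arrays, and each gene was represented by its brightest such probe. Of 41012 probes, 25463 met this and stood for 21486 genes, of which 10845 have only a placeholder name in the files. All groups were male Sprague-Dawley rats of 180 to 220 g in which a 1 cm segment of the left sciatic nerve had been cut out at mid-thigh. By their labels the groups differed in the time to tissue collection, and no uninjured group is labelled. The 24 rats had been divided at random into groups of 6, and the ganglia were lumbar 4 to 6. How the rats were shared out over the arrays is not labelled, so the p-values measure only the spread between these samples, which may be technical.

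The dorsal root ganglion holds the cell bodies of the sensory neurons whose axons run in the nerve, each wrapped by satellite glia, together with Schwann cells, vessels and resident immune cells. When the axon is cut, signals that travel back along it set off a programme of transcription factors, growth-associated genes and cytokines in the cell body. Surgery and anaesthesia also act on the whole animal through stress steroids, and every tissue keeps its own circadian clock, so an interval of hours after an operation covers several such programmes at once.

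Levels are log2 intensities relative to the 75th percentile of each array's probes, so a level of 0 is that percentile, and they are not comparable between genes because each gene has its own probe. A gene was called where limma's adjusted p (Benjamini-Hochberg over 21486 genes) was under 0.05, and "rose" or "fell" is used only of called genes. The comparison called 4574 genes, 21.3% of those tested, of which 2795 were higher at 9 h and 1779 lower. The share called higher was 13% and the share called lower 8.28%. The median difference over all genes was 0.03. At 2-fold or more, 423 genes were higher and 31 lower. In 7926 genes (36.9%) every array of 1 time lay beyond every array of the other, in 21.5% with 9 h higher and in 15.4% with 9 h lower. Of the calls, 61.1% were higher at 9 h, but 44.4% with quantile scaling, 54.7% with loess, 52.2% after normexp background correction and 15.9% with scaling to each array's median. Median scaling moved the median of all genes to -0.17, so the balance of higher and lower calls depended on the scaling. Without 3 h replicate 1 the number of calls was 2830 (975 of them lower), and without 9 h replicate 2 the lower calls were 1129. All 3 h arrays lay on 1 slide and all 9 h arrays on another, scanned on a different day, so slide, scan day and time cannot be told apart.

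Sensory neuron markers, such as neurofilaments and sodium channels of pain neurons, had a mean level of 4.92 to 5.11 at 3 h and 4.99 to 5.07 at 9 h, far above the array's 75th percentile. Because whole ganglia were assayed, fewer cells of a type and less RNA per cell cannot be told apart in any of the values that follow.

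The injury response was most visible in Atf3, the transcription factor that marks axotomised sensory neurons. Its level was 0.95, 1.41 and 1.20 on the 3 h arrays and 3.74, 3.52 and 3.75 on the 9 h arrays. The 9 h arrays lay far above the 3 h arrays, and above the means of 1.83 at 0.5 h and 1.82 at 6 h. Atf3 rose 5.59-fold (log2 2.48, SE 0.21, 95% limits 1.99 to 2.98, adjusted p = 1.11e-04), the largest increase among called genes that did not overlap and whose name was not a placeholder. The probe lies at chr13:107191691-107191749 in the rn4 assembly of the array's annotation. Jun, the AP-1 partner of Atf3, went from 2.91, 3.12 and 2.96 to 3.73, 3.66 and 3.80, with no overlap. Its rise was 1.67-fold (log2 0.74, SE 0.08, adjusted p = 3.18e-04).

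Of 39 tested genes of nerve injury and regeneration, 10 rose and 2 fell (25.6% and 5.13%, against 13% and 8.28% of all genes). The list's median was 0.03, as over all genes, so that the rises were those of single members and the middle of the list was not shifted. Median scaling, which shifts every gene of an array alike, took both medians to -0.17. With median scaling 8 rose and 8 fell (6.28% and 33.2% of all genes). After normexp 5 rose and 2 fell (3.31% and 3.03% of all genes). Sox11, a transcription factor of axon growth, was at -4.12, -4.46 and -3.94 at 3 h and at -2.33, -2.52 and -2.38 at 9 h. The arrays did not overlap, and the rise was 3.40-fold (log2 1.76, SE 0.16, adjusted p = 1.40e-04). It is a dim probe, at 98.7 intensity units at 3 h, and it missed the threshold after normexp (log2 1.63, adjusted p = 0.0626).

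Reg3b, a secreted lectin induced in injured sensory neurons, moved from -2.00, -0.96 and -1.76 to -0.01, 0.12 and 0.18. All 9 h arrays were above all 3 h arrays, a 3.18-fold rise (log2 1.67, SE 0.26, adjusted p = 0.00177). Ecel1, a membrane protease known from damaged neurons, rose by 1.37 (log2, adjusted p = 6.98e-04), but not past the threshold after normexp (adjusted p = 0.0552). Fst, which binds and blocks activin, rose by 0.92 (SE 0.11, adjusted p = 5.21e-04), and its other probe was higher as well. Gadd45a, a stress protein that binds p38-pathway kinases, rose by 0.57 and its 3 arrays at 9 h spanned 2.62 to 2.64. Flrt3, an adhesion protein that promotes neurite growth, rose by 0.49, with its other probe called higher, and Smad1, the BMP effector tied to axon growth, by 0.43. Gadd45a and Smad1 were not called after normexp, nor Smad1 with median scaling.

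Members of the same list moved the other way or not detectably. Klf7, a factor that supports axon growth, was at 5.04, 4.98 and 4.99 at 3 h and at 4.44, 4.15 and 4.35 at 9 h. No array overlapped, and Klf7 fell by 0.69 (SE 0.08, adjusted p = 3.63e-04), with its other probe also called lower. Adcyap1, which encodes the neuropeptide PACAP, fell by 0.31 (adjusted p = 0.0398). This call was lost with any of 6 single arrays left out (values -0.39 to -0.25, adjusted p up to 0.138). They were 0.5 h replicate 3, 3 h replicates 1 and 2, 6 h replicate 2 and 9 h replicates 2 and 3. Its other probe stood at -0.065 (adjusted p = 0.598), and the call was also lost with the 6 arrays alone and after normexp.

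Growth-associated and peptide genes that are textbook products of the later response were not called. Gap43, the growth cone protein, differed by 0.03 (95% limits -0.16 to 0.21, adjusted p = 0.837) and Gal, the neuropeptide galanin, by -0.21 (-0.44 to 0.02, adjusted p = 0.156). The differences of Vip and Bdnf were -0.15 and -0.05. Npy, at -0.07, spanned 1.48 to 3.16 across the 3 h arrays, and its limits of -1.47 to 1.33 leave a change of either sign possible. The difference of Csrp3, a muscle LIM protein also found in injured neurons, was 0.31 with limits of -1.38 to 2.01.

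**Figure D1:**
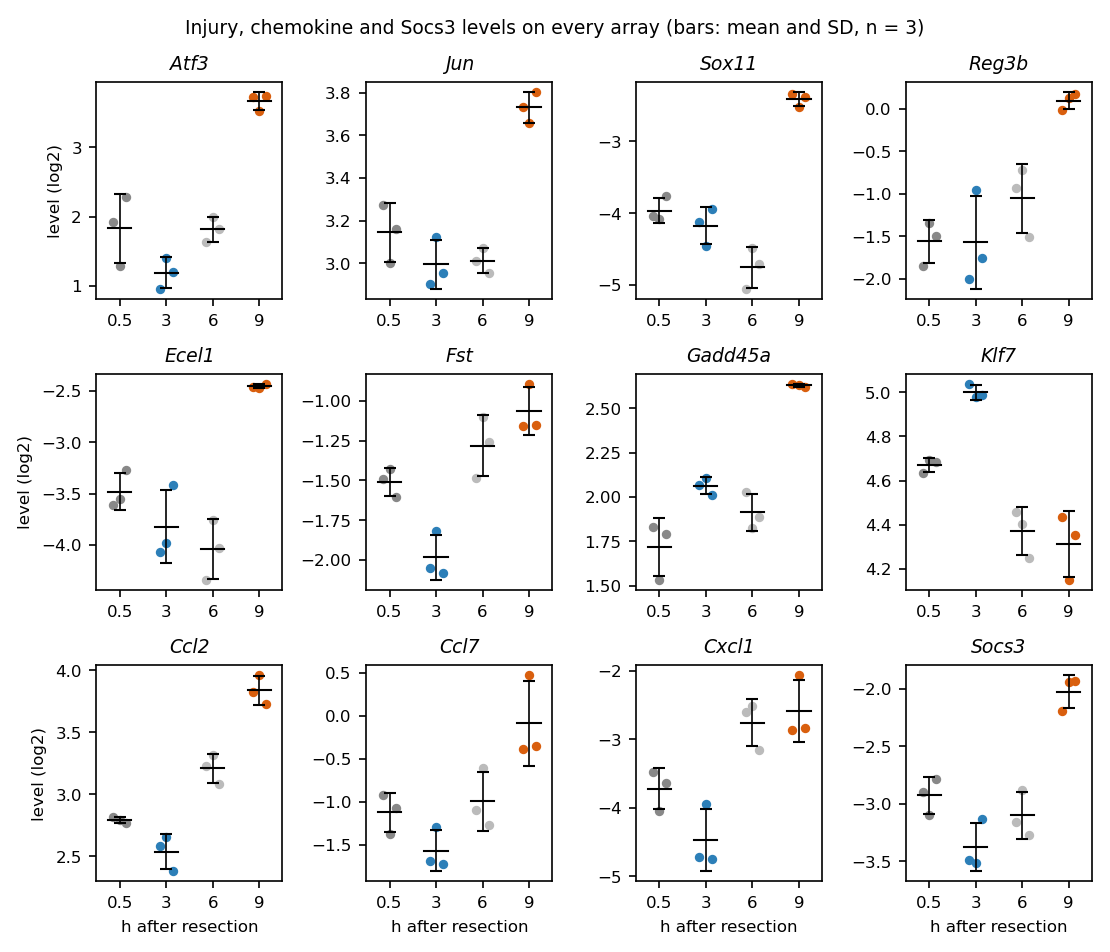
Level of 12 named genes (log2 relative to each array's 75th percentile, y axes scaled per gene) on each of 3 arrays at 0.5, 3, 6 and 9 h after resection; the bar and whiskers are the mean and SD. Atf3 is at 3.52 to 3.75 at 9 h and at 0.95 to 1.41 at 3 h, while Klf7 is lower at 9 h than at 3 h.

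Cytokines and chemokines, the signals that call in and activate immune cells, had the largest share of members called higher among gene lists of 15 or more tested genes. Of 16 tested, 8 rose and 0 fell (50% against 13% of all genes called higher), 1 was lower at an unadjusted limma p under 0.05, and the list's median was 0.44. The median ranged from 0.24 with median scaling to 0.46 with loess. The number that rose was 4 with median scaling (6.28% of all genes rose there) and 4 after normexp (3.31%), 7 with quantile scaling (9.12%) and 8 with loess. Ccl2, the monocyte chemoattractant made by injured sensory neurons, was at 2.58, 2.65 and 2.38 at 3 h and at 3.82, 3.96 and 3.73 at 9 h, with 6 h between at a mean of 3.21. Every 9 h array exceeded every 3 h array, and Ccl2 rose 2.46-fold (log2 1.30, SE 0.09, adjusted p = 5.37e-05). Its probe lies at chr10:70257919-70257978 in rn4. Ccl7, a related monocyte chemokine, was at -1.68, -1.29 and -1.72 and then at -0.39, 0.48 and -0.35. The times were apart by more than the spread, a 2.79-fold rise (log2 1.48, SE 0.25, adjusted p = 0.00241), and a further probe was called higher too.

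Cxcl1, which attracts neutrophils, was at -4.72, -3.95 and -4.74 at 3 h and at -2.86, -2.06 and -2.83 at 9 h. The rise of 3.70-fold (log2 1.89, SE 0.28, adjusted p = 0.00135) was between arrays that did not overlap, although the probe is dim (80.4 intensity units at 3 h). At 6 h it was already at a mean of -2.76. Il1b, the inflammatory cytokine interleukin-1 beta, rose by 0.94 (SE 0.25, adjusted p = 0.0220). Its call was lost without 3 h replicate 1, 9 h replicate 2 or 9 h replicate 3 (values 0.64 to 1.19 over the arrays left out, adjusted p up to 0.0788), with quantile scaling and with the 6 arrays alone. Cx3cl1, the neuronal chemokine fractalkine, rose by 0.50, Csf1, the macrophage growth factor, by 0.44 and Tnfrsf1a, a TNF receptor, by 0.31. These 3 were not called after normexp or with median scaling. The remaining members included Ccl3 at 0.75 (adjusted p = 0.127) and Ccl5 at -0.55 (adjusted p = 0.0769).

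Il6, the cytokine interleukin-6, was outside the 21486 genes because it was well above background on none of the 3 h arrays and on all 3 of the 9 h arrays. Its signal was 6.51, 6.62 and 5.90 intensity units at 3 h and 24.4, 47.8 and 16.7 at 9 h. At 0.5 h it was 15.4, 12.7 and 16.8 and not well above background on any array, so that 9 h replicate 3 lay within the 0.5 h signals. By these bounds Il6 was at least 3.54-fold higher at 9 h, with no test because it passes the filter only through its 9 h arrays, against the lowest signal found well above background or the probe's own signal, whichever was higher on each 3 h array. Socs3, the feedback inhibitor that interleukin-6 type cytokines induce through STAT3, was at -3.49, -3.51 and -3.14 at 3 h and at -2.19, -1.94 and -1.94 at 9 h. The arrays were fully apart and the rise was 2.55-fold (log2 1.35, SE 0.14, adjusted p = 2.01e-04). In the interleukin-6 and STAT3 list of 24, 3 rose and 2 fell, with a median of 0.06. These shares, 12.5% and 8.33%, were near the 13% and 8.28% of all genes. Stat3 itself was called higher by 0.32, but its other probe stood at -0.17 (adjusted p = 0.285). The mean of the called Stat3 probe was 2.48 at 3 h and 2.80 at 9 h, against 3.02 at 0.5 h and 2.92 at 6 h. Ptpn11, a phosphatase downstream of these receptors, fell by 0.61 and the kinase Jak1 by 0.28, each with a further probe called lower.

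Among 15 NF-kappaB subunits and inhibitors, 5 rose and 2 fell (33.3% and 13.3%, against 13% and 8.28% of all genes). The counts became 2 and 2 with quantile scaling (9.12% and 11.4% of all genes) or loess (10.5% and 8.68%). Nfkbia, the inhibitor IkB-alpha, was at 2.52, 2.46 and 2.45 at 3 h and at 1.61, 1.57 and 1.65 at 9 h. It fell by 0.87 (SE 0.09, adjusted p = 2.06e-04), with no array near the other time. Bcl3, an atypical member that acts in the nucleus, rose by 0.63 (adjusted p = 0.00262), and Nfkbiz, another, by 0.43, which was not called after any of the 4 other scalings or background corrections.

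Counts of immune cell markers are set beside all genes, of which limma called 13% higher and 8.28% lower. The lymphocyte and neutrophil lists are too short for their counts to be told apart from these shares. Of 6 tested lymphocyte markers 1 rose (16.7%) and 0 fell. This was the T cell kinase gene Lck, named after its value was seen, by 0.32 (adjusted p = 0.0388). It was not called after any of the 4 other scalings or background corrections. The list's mean was -2.43 to -2.32 at 3 h and -2.31 to -1.88 at 9 h. Of 5 tested neutrophil markers 0 were called (0 at an unadjusted p under 0.05), although the mean of the list ranged from -0.88 to -0.20 at 3 h and from -0.03 to 0.39 at 9 h, without overlap. Its 9 other listed genes were not tested. Of 13 macrophage markers 0 were called (0 unadjusted), at 0.42 to 1.32 and 0.69 to 1.10. Their part in the chemokine values was not tested. Skeletal muscle markers ranged from 1.35 to 3.42 at 3 h and from 1.40 to 2.70 at 9 h, with 0 of 20 called (0 unadjusted).

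**Figure D2:**
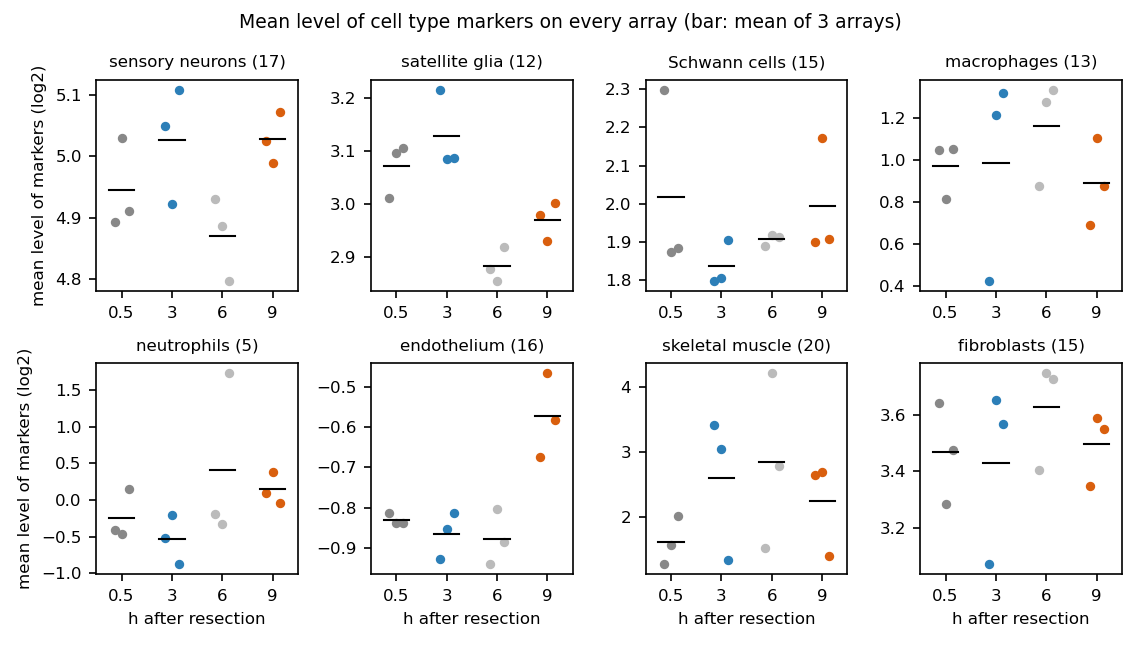
Mean level of the tested markers of 8 cell types (number in brackets, log2 relative to each array's 75th percentile) on each array at 0.5, 3, 6 and 9 h; the bar is the mean of 3 arrays. Neutrophil and endothelial markers are higher on every 9 h array than on every 3 h array, and satellite glia markers are lower.

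Satellite glia markers were lower at 9 h, at 2.93 to 3.00 against 3.08 to 3.22. Of 12 tested, 3 fell (25%) and 0 rose (0 higher at an unadjusted limma p under 0.05). Of all genes 8.28% fell and 13% rose. Ednrb, the endothelin B receptor of these glia, was at 1.51, 1.16 and 1.43 and then at 0.71, 0.54 and 0.51, a fall of 0.78 (SE 0.09, adjusted p = 4.67e-04) between arrays that did not overlap. The growth factor Ptn fell by 0.36 and the adhesion protein Cadm2 by 0.39. Of 16 endothelial markers 5 rose and 2 fell (31.2% and 12.5%). After normexp 1 rose and 0 fell (3.31% and 3.03% of all genes). The list level was -0.93 to -0.81 at 3 h and -0.67 to -0.46 at 9 h. Tal1, a vascular and blood transcription factor, rose by 0.99, the VEGF receptor Flt1 by 0.95 and the guidance receptor Robo4 by 0.87, whereas the arterial factor Sox17 fell by 0.55. Flt1, Robo4 and Tal1 are dim probes. Vwf, the von Willebrand factor gene, rose by 0.60 (adjusted p = 0.0193) from a brighter signal, 2742 intensity units at 3 h. Flt1, Robo4, Sox17 and Cadm2 were not called after normexp, where the 1 endothelial rise was Tal1. The call of Tal1 was not made with its dimmest probe. The mean of Tal1 was -2.75 at 3 h and -1.76 at 9 h, against -1.74 at 0.5 h and -1.97 at 6 h.

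The circadian clock held the largest decrease among called genes chosen in the same way. In the clock, Arntl (Bmal1) with Clock or Npas2 drives Per, Cry and Nr1d genes, the Per and Cry proteins block that drive, and the Nr1d proteins repress Arntl. Nr1d1 was at -0.48, -0.55 and -0.39 at 3 h and at -2.89, -1.94 and -3.07 at 9 h. The means at 0.5 h and 6 h, -1.24 and -1.48, lay between. Nr1d1 fell 4.47-fold (log2 -2.16, SE 0.23, 95% limits -2.68 to -1.63, adjusted p = 2.50e-04), and no array of 1 time reached the other. Its probe spans chr10:87543165-87543519 in rn4. Dbp, an output factor of the clock, was at 2.18, 1.88 and 1.88 and then at 0.65, 1.35 and 0.53, again without overlap. Dbp fell by 1.14 (SE 0.18, adjusted p = 0.00171).

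On 9 h replicate 2, Nr1d1 and Dbp were both nearer to their 3 h levels than on the other 9 h arrays. Nr1d2, the paralogue of Nr1d1, fell by 1.07 (SE 0.13, adjusted p = 5.10e-04), but its dim probe stood at 0.25 after normexp, the opposite sign and not called (adjusted p = 0.752). Arntl, the partner that Nr1d proteins repress, differed by 0.01 (95% limits -0.27 to 0.29, adjusted p = 0.975).

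Of 16 core clock genes 5 rose and 2 fell, against 13% and 8.28% of all genes, with a median of 0.17 that became -0.03 with median scaling. There 2 rose and 3 fell (6.28% and 33.2% of all genes), and after normexp 3 rose and 1 fell (3.31% and 3.03%). Cry1 was at 0.20, 0.17 and 0.00 at 3 h and at 1.02, 0.80 and 0.85 at 9 h, after 0.80 on average at 6 h. The rise of Cry1 was 0.76 (SE 0.11, adjusted p = 9.56e-04), lost after normexp (adjusted p = 0.0828). Arntl2, a paralogue of Arntl, rose by 1.09 (SE 0.15, adjusted p = 9.25e-04) and kept its call in all 27 alternatives. Per2 was at -0.33, -0.66 and -0.48 at 3 h, at a mean of 0.52 at 6 h, and at -0.19, 0.27 and -0.13 at 9 h, so that the 9 h arrays lay above 3 h and below 6 h. Per2 rose by 0.47 (adjusted p = 0.0237), lost without 3 h replicate 2 or 9 h replicate 2 (values 0.33 to 0.56 over the arrays left out, adjusted p up to 0.0825), with median scaling and with the 6 arrays alone.

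Npas2 rose by 0.60 (adjusted p = 0.0301), lost without 3 h replicate 1 or 2 or 9 h replicate 1 or 3 (values 0.50 to 0.68, adjusted p up to 0.0950), and under all 4 other scalings or background corrections. The clock kinase gene Csnk1e was called higher by 0.37, lost without 3 h replicate 1 or 2 or 9 h replicate 2 (values 0.30 to 0.44, adjusted p up to 0.0735), and its other probe was called lower (-0.32, adjusted p = 0.0443). Per1 stood at -0.57 and was not called (adjusted p = 0.178). The hours of the day at which tissue was taken are not given in the labels used here.

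Promoters of the clock genes, whatever their call, were searched for the known clock elements. The table of RefSeq promoters (assembly GRCr8, 250 bases before to 50 after a start) held 20 promoters of 19 clock and clock output genes. The E-box CACGTG, which reads the same on both strands, occurred in 4 of these 20 (Nr1d1, Tef, Bhlhe40 and Bhlhe41, of which Nr1d1 is described above as called) and in 6.42% of all 33469 promoters. The E-box was not particular to clock genes, as it occurred in 3 of 17 promoters of AP-1 and CREB family genes. In nerve injury and regeneration genes it occurred in 2 of 33. The D-box, TTATGTAA or TTACATAA, occurred in 1 of the 20 clock promoters and in 0.893% of all. A match is a description of the letters, not a site. The stretches around the match are printed for Nr1d1, the gene with the largest decrease, and for Per2, 5′ to 3′ on the minus strand, with the match in capitals. The E-box of Nr1d1 begins 191 bases before the downstream of 2 listed starts, at chr10:84229575-84229694 in GRCr8, and the D-box of Per2 begins 192 bases before its start, at chr9:99497114-99497233.
Nr1d1: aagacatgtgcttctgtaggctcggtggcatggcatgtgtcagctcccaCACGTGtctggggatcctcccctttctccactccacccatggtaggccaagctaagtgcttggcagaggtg
Per2: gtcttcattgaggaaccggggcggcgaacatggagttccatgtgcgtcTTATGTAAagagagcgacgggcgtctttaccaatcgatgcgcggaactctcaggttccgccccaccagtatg

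Stress steroids act through the glucocorticoid receptor, and the list of its target genes had the largest share of members called lower among gene lists of 15 or more tested genes. Of 25 tested, 9 fell and 1 rose (36% against 8.28% of all genes called lower), 21 of the 25 had a negative difference, and the list's median was -0.45. The median stayed between -0.65 with median scaling and -0.29 after normexp, where 4 fell (3.03% of all genes fell there). With median scaling 19 fell (33.2% of all genes). Fkbp5, an inhibitory co-chaperone of the receptor, was at 3.14, 3.26 and 3.03 at 3 h and at 2.03, 1.98 and 1.74 at 9 h. The 9 h arrays were near the 0.5 h mean of 1.82 and below all 3 h arrays. Fkbp5 fell by 1.23 (SE 0.17, adjusted p = 9.97e-04), and both of its further probes were called lower. Its probe is at chr20:6637600-6637659 in rn4.

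Zbtb16, a transcriptional repressor, was at -1.48, -1.84 and -1.49 at 3 h and at -2.66, -3.25 and -3.64 at 9 h. The arrays did not overlap, and Zbtb16 fell by 1.58 (SE 0.29, adjusted p = 0.00377). After normexp it stood at -0.82 and was not called (adjusted p = 0.212). Klf15, a metabolic regulator, fell by 0.98 (SE 0.18, adjusted p = 0.00437), from 3.99, 3.94 and 3.72 to 2.93, 2.92 and 2.88, and kept its call in all 27 alternatives. The others that fell were Nfkbia (described above), Dusp1, a phosphatase of MAP kinases, by 0.74, Errfi1, an inhibitor of the EGF receptor, by 0.65, and Ddit4, an inhibitor of mTOR, by 0.61. Dusp1 and Errfi1 were not called after normexp. Their means were highest at 0.5 h (-0.17 and 3.72) and not at 3 h (-0.66 and 3.62).

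Arrdc2 fell by 0.54 and Sgk1, a kinase of salt transport, by 0.51, and both calls were near the threshold. Sgk1 (adjusted p = 0.0433) was lost with 9 of the 12 arrays left out in turn (adjusted p up to 0.113, values -0.55 to -0.48): 0.5 h replicate 3, 6 h replicates 1 and 2 and each 3 h and 9 h array. It was also lost with quantile scaling, with loess and after normexp. Arrdc2 was lost when 3 h replicate 1, 3 h replicate 3 or any 9 h array was left out (values -0.63 to -0.47, adjusted p up to 0.116), and Ddit4 without 3 h replicate 1 or 9 h replicate 2 (values -0.74 to -0.53, adjusted p up to 0.0563). Hif3a, listed as a target, rose by 0.76 (adjusted p = 0.00141). Its dim probe was lowest at 6 h, and it was not called after normexp (adjusted p = 0.0829).

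**Figure D3:**
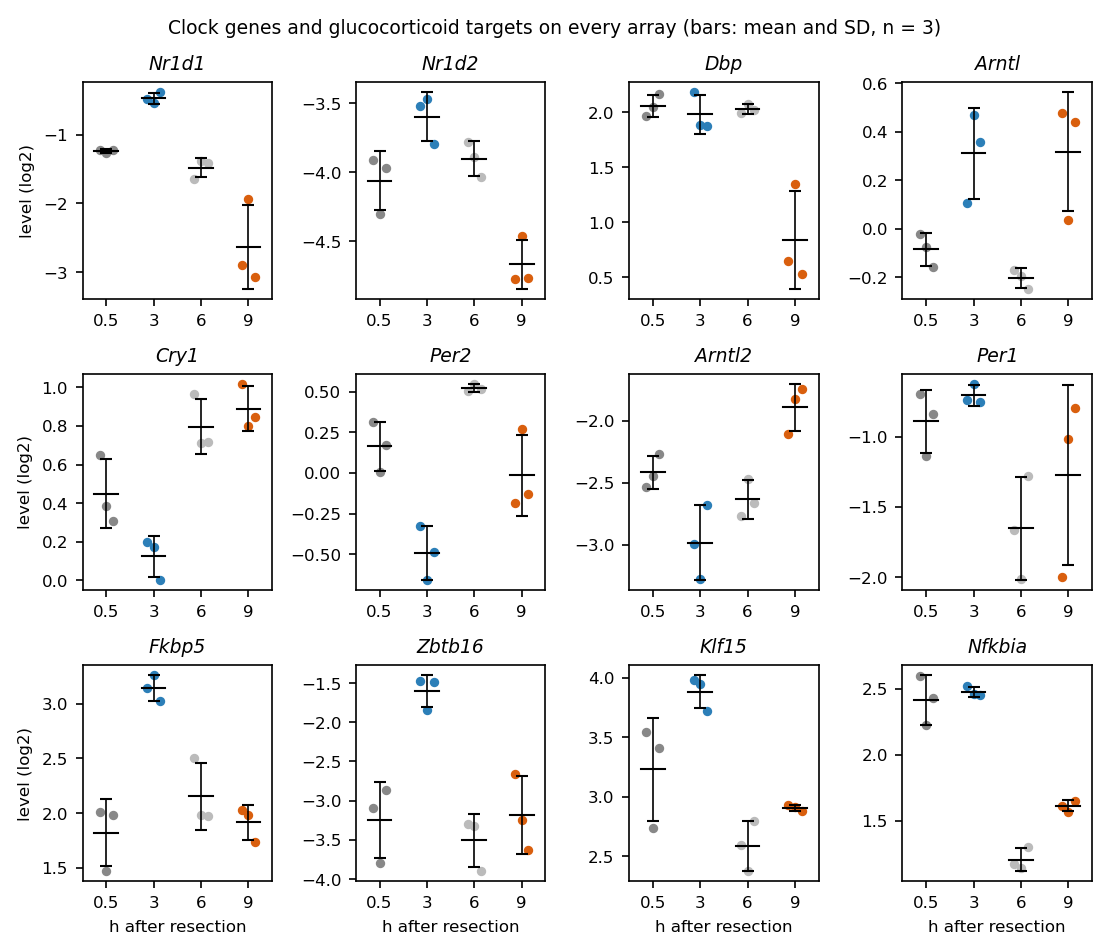
Level of 8 clock genes and 4 glucocorticoid targets (log2 relative to each array's 75th percentile, y axes scaled per gene) on each of 3 arrays at 0.5, 3, 6 and 9 h; the bar and whiskers are the mean and SD. Nr1d1, Nr1d2 and Dbp are lowest at 9 h, while Fkbp5, Zbtb16 and Klf15 are highest at 3 h.

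Early response genes, which respond to activity and growth factors within minutes, were called at shares close to those of all genes. Of 33 tested 4 rose and 2 fell (12.1% and 6.06%), with a median of 0.00. Gadd45g, a stress gene, rose by 0.81 (adjusted p = 0.00124) and the growth regulator Myc by 0.50 (adjusted p = 0.00271). Nr4a3, an orphan nuclear receptor, fell by 0.91 and its other probe was called lower. Egr2, a zinc-finger factor that also drives myelination in Schwann cells, fell by 0.74 (adjusted p = 0.0365), a call lost without 3 h replicate 1 or 2, 6 h replicate 2 or any 9 h array (values -0.92 to -0.61, adjusted p up to 0.118), with loess and after normexp. Egr1 and Fos, the usual reporters of activity, differed by 0.33 and 0.45 (adjusted p = 0.237 and 0.364), and Gem, an activity-induced GTPase, by 0.22. Dusp6, which switches off ERK, rose by 0.62 (adjusted p = 0.00457). Its mean was 1.07 at 3 h and 1.70 at 9 h, against 1.98 at 0.5 h and 1.79 at 6 h. Gadd45g kept its call after normexp, and Myc, Nr4a3 and Dusp6 did not.

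Growth factor and identity genes changed singly. Gdnf, a survival factor for sensory neurons, was at -1.48, -1.56 and -1.05 at 3 h and at -0.64, -0.42 and -0.53 at 9 h, a rise of 0.83 (SE 0.13, adjusted p = 0.00163) without overlap. Etv4, an ETS factor that neurotrophins induce, rose by 0.91 (adjusted p = 7.74e-04), and Runx3, a factor of proprioceptive neurons, by 0.66 (adjusted p = 0.0108). Of 25 neurotrophic factors and receptors 2 rose and 1 fell (8% and 4%). Of 21 neuropeptides 1 rose and 2 fell (4.76% and 9.52%), against 13% and 8.28% of all genes.

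Ion channels and receptors set how excitable a sensory neuron is. Among 53 potassium channel genes 9 rose and 5 fell (17% and 9.43%), close to the shares of all genes (13% and 8.28%). Among the rises were Kcng4 (1.25, adjusted p = 9.28e-05), Kcna6 (1.15, adjusted p = 2.85e-04) and Kcns2 (1.00, adjusted p = 5.22e-04), which encode pore or modulatory subunits of voltage-gated channels. All 3 probes were dim, from 83.3 intensity units (Kcns2) to 227 (Kcna6) at 3 h, and Kcns2 was not called after normexp. The mean of Kcns2 was -4.42 at 3 h and -3.42 at 9 h, against -3.33 at 0.5 h and -3.46 at 6 h. The 9 include a probe named Kcnd3 in the files, at chr3:128922797-128922856 in rn4, which overlaps the Flrt3 probe at chr3:128922831-128922890, so that its rise of 0.85 cannot be assigned to the channel. Of 12 sodium channel genes 0 rose and 1 fell (limma; 1 higher and 3 lower at an unadjusted p under 0.05), and Scn10a, the channel Nav1.8 of pain neurons, differed by -0.19 (adjusted p = 0.101). Of 21 calcium channel genes 0 were called by limma (3 higher and 0 lower unadjusted, and 2 higher with quantile scaling).

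Sensory receptors and transducers were split, with 8 of 53 higher and 8 lower (15.1% each, against 13% and 8.28% of all genes). After normexp 2 rose and 3 fell (3.31% and 3.03% of all genes). The list's differences ranged from -0.72 to 1.34, so the rises named below exceed its falls in size. Bdkrb1, the inducible bradykinin B1 receptor, rose by 1.34 (SE 0.12, adjusted p = 1.39e-04) from a dim signal of 85.8 units, and was not called after normexp (adjusted p = 0.0814). Adra2a, an adrenergic receptor, rose by 1.13 and the protease receptor F2rl1 by 0.87, and neither was called after normexp. Mrgprd, the receptor that marks non-peptidergic pain neurons, was at -1.57, -1.65 and -1.41 and then at -1.02, -0.81 and -0.19. This was a rise of 0.87 (SE 0.18, adjusted p = 0.00615) without overlap, to a mean of -0.67 (SD 0.43). The 0.5 h mean was -0.21. Trpv1, the capsaicin receptor, differed by 0.12 (adjusted p = 0.489).

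Of 39 proteasome subunits 0 rose and 11 fell (28.2%, against 8.28% of all genes; 1 was higher at an unadjusted limma p under 0.05), with a median of only -0.09. The number that fell was 4 with quantile scaling (11.4% of all genes fell there) and 3 with loess (8.68%). It was 5 after normexp (3.03%) and 28 with median scaling (33.2%). Psmd11 fell by 0.36 (adjusted p = 0.00178) and Psma3 by 0.45 (adjusted p = 0.0111), the latter not called with the 6 arrays alone. Of 33 genes of amino acid and endoplasmic reticulum stress 8 fell and 1 rose (24.2% and 3.03%). Under loess 5 were lower, and after normexp 3. Dnajb9, a chaperone of the endoplasmic reticulum, fell by 0.67 (adjusted p = 3.16e-04), but its other probe stood at 0.06. Of 23 heat shock proteins and co-chaperones 5 fell (21.7%) and 0 rose (1 higher unadjusted), with 4 lower under loess and 3 after normexp. Of 59 oxidative phosphorylation subunits 3 fell (5.08%). Of 75 ribosomal proteins 2 rose and 9 fell (2.67% and 12%), or 3 and 2 with quantile scaling. Of 36 splicing factors 4 rose and 5 fell (11.1% and 13.9%), or 6 and 4 with quantile scaling. Of all genes 13% rose and 8.28% fell. Hsp90ab1 fell by 0.56, while its 2 other probes differed by -0.09 and 0.08, so that only its brightest probe of the 3 was called.

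Cholesterol and fatty acid synthesis went the other way, with 8 of 35 higher and 0 lower (22.9% against 13%; 3 lower at an unadjusted limma p under 0.05). Its median was 0.07, and -0.13 with median scaling, where 1 rose and 7 fell (6.28% and 33.2% of all genes). After normexp 1 rose and 1 fell (3.31% and 3.03% of all genes). Insig1, which holds back the sterol sensor, was at 4.67, 4.57 and 4.40 at 3 h and at 4.96, 4.96 and 4.93 at 9 h. The arrays were apart, and Insig1 rose by 0.41 (adjusted p = 0.00683), as did all 3 of its other probes. Dhcr7, the last enzyme of the pathway, rose by 0.35. Neither Insig1 nor Dhcr7 was called after normexp or with median scaling. Hmgcs1, an earlier step, differed by -0.06 (adjusted p = 0.578).

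**Figure D4:**
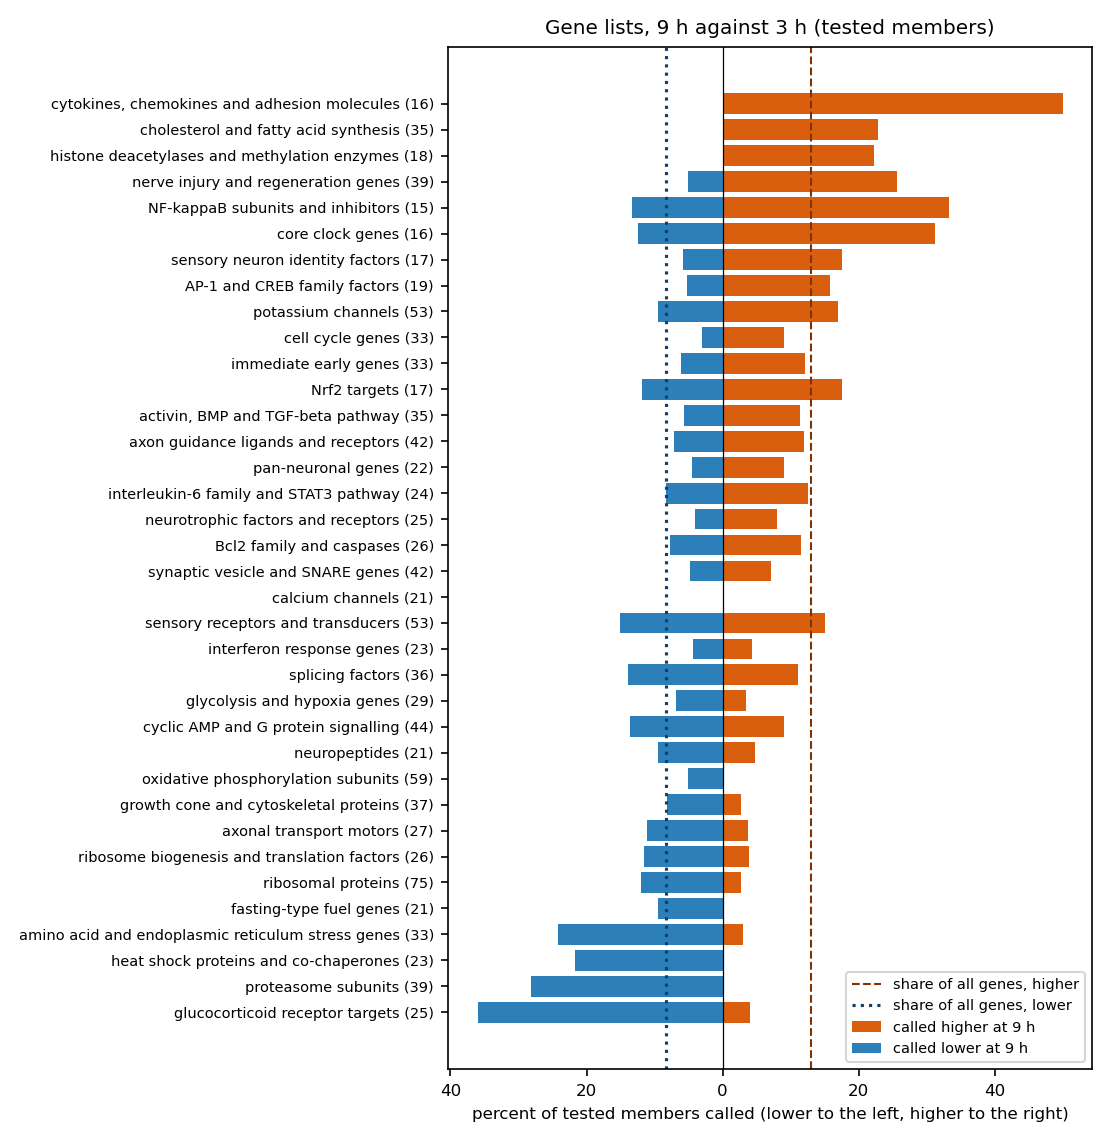
Percent of tested members of each gene list (number in brackets, lists of 15 or more) called lower (left) and higher (right) at 9 h against 3 h, with dashed and dotted lines at the shares of all 21486 genes, 13% and 8.28%. Cytokines and chemokines extend to 50% on the right and glucocorticoid targets to 36% on the left.

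The share of calls depended on how bright a gene's probe was. Among the 4298 dimmest genes (median 161 intensity units) 27.0% were higher and 3.72% lower, with a median of 0.21. Among the 4297 brightest 2.89% were higher and 9.26% lower, with a median of -0.04. With quantile scaling the dimmest had a median of -0.08, with 579 higher and 674 lower. After normexp the median of the dimmest was larger than in the main fit, at 0.75, and that of the brightest was -0.17. Fewer of all genes were called there (3.31% higher and 3.03% lower), so a call lost after normexp need not be a smaller rise. Between 82.4 and 83.3% of probes exceeded background clearly at 3 h, and between 84.9 and 85.4% at 9 h. Local background lay between 42.5 and 45 intensity units (array medians) at 3 h and between 37 and 41 at 9 h. The part of these differences in the rises of dim genes was not tested.

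Most of the 12 largest increases were among dim probes. Apart from Atf3 and Cxcl1 they were Ano7, of the anoctamin family (4.09-fold), Mpp2, a membrane scaffold (3.76-fold), and 8 odorant or vomeronasal receptor genes, which normally serve smell. Olr694, the largest of these, was at -2.74, -3.13 and -2.82 at 3 h and at -0.60, -0.81 and -0.94 at 9 h, a 4.33-fold rise (adjusted p = 5.97e-05) between arrays far apart. Ano7 moved from -3.55, -3.91 and -3.24 to -1.58, -1.57 and -1.47, and Mpp2 from -4.48, -4.87 and -4.41 to -2.65, -2.71 and -2.67. Besides Nr1d1, Zbtb16, Fkbp5, Dbp and Nr1d2, the 12 largest decreases included Timp3, an inhibitor of matrix metalloproteinases. It was at 2.32, 1.92 and 2.15 at 3 h and at 0.72, 0.74 and 0.80 at 9 h, and fell by 1.37 (SE 0.18, adjusted p = 6.33e-04) with no overlap. Cga, the glycoprotein hormone alpha chain, fell by 1.38, Rpe65, known from the visual cycle, by 1.36, and Ctla2a, a protease inhibitor, by 1.08. Mpp2 was not called after normexp, nor was Cga (adjusted p = 0.310) or the odorant receptor gene Olr1235, which fell by 1.06 and stood at 0.09 there.

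**Figure D5:**
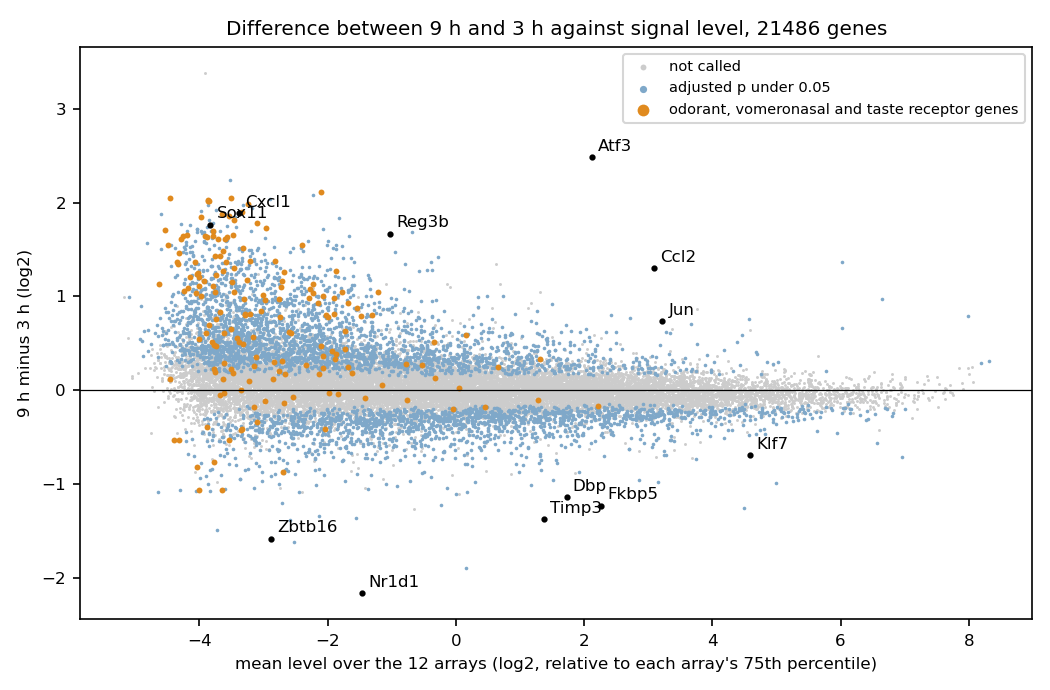
Difference between 9 h and 3 h (log2) against the mean level over the 12 arrays for 21486 genes, with called genes in blue, odorant, vomeronasal and taste receptor genes in orange and 12 genes named. Large increases gather at low levels, while Atf3, Ccl2, Jun, Fkbp5 and Klf7 stand apart at levels where most genes lie near 0.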

How the data were processed

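Total RNA of the ganglia was amplified, labelled with Cy3 and hybridised to 1-colour Agilent rat arrays, per the labels' protocols. The deposited intensity values are per spot on a linear scale, background-subtracted by Agilent Feature Extraction 10.5.1.1, per the file headers, and the series matrix repeats them without change. No scaling between arrays is recorded in those files.

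The deposited intensity was taken as log2 after outlier spots (76 to 218 per array) and 1639 control spots had been left out, spots of a probe were averaged, and each array's 75th percentile was subtracted. No spot was saturated. That percentile was 1679 to 1889 intensity units at 3 h and 1804 to 1889 at 9 h, and the number of arrays limits the precision. Group means of all 12 arrays entered 1 linear model (lmFit and eBayes of limma 3.58.1, under R 4.3.3) with 9 h minus 3 h as the contrast, which was tested on simulated data. The gene table lacks 86 values from outlier spots (41 genes at 3 h or 9 h), and such genes were fitted on the remaining arrays.

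Genes named are, among calls without overlap and without a placeholder name, the 12 that increased most and the 12 that decreased most, up to 5 called members of lists with at least 3 calls or 1.5 times the share of all genes, and 32 genes given whatever their result. Not every gene of the rule is described, and some are not reported here. The comparison, the lists and the rule were chosen with earlier results of these data known. Lists are described by counts and medians, with no set test. Gene names are those of the files, and 42.9% of the genes tested matched a current name in RefSeq (GRCr8). Alternatives were other scalings, normexp background correction, probe filters and probe choices, the 6 arrays alone, other variance models, replicate number or slide as a block, and each array left out in turn.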

Additional observations from a re-analysis of the deposited data

How the results depend on the processing

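The main comparison called 4574 genes, 2795 higher and 1779 lower. Median scaling gave 8476 (1350 higher, 7126 lower), normexp 1363 (711 and 652), and fitting only the 6 arrays 2929 (932 lower). Looser filters gave 4368 higher (well above background on all 6 arrays), 6956 called and 5197 higher (on all arrays of 1 time), and 7671 and 6043 (no filter). Array weights gave 8771 (4866 and 3905) and the slide as a random block 8955 (5312 and 3643), with a slide correlation of -0.22. With arrays left out in turn, the calls ranged from 2830 (without 3 h replicate 1) to 4788, those higher from 1855 to 2929 and those lower from 975 to 1859. The cause of these shifts was not tested, except that the 6-array fit and the left-out fits hold fewer arrays and the filters test other numbers of genes. Median scaling also shifts all genes of an array alike. All arrays of 3 h, and all of 9 h, share a slide, so a negative slide correlation lowers the standard error of their means. The replicate block gave 3871 calls and did not call Npas2, Egr2 and Sgk1. Arrays of the same number correlated at 0.17, 0.03 and 0.30 in their deviations from the group means, and 2 of 3 correlated best with their own number. Whether arrays of the same number share more than that number is not labelled and was not tested.

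Of 81 called genes followed through the alternatives, 36 were called in all 27 alternatives, 37 were lost or reversed after normexp and 71 kept their call with each array left out. Signs turned for Gclm with quantile scaling (-0.040), for Arrdc2 (0.20), Nr1d2 (0.25), Tnfrsf1a (-0.025) and Olr1235 (0.090) after normexp, and with the dimmest probe for Dnajb9 (0.063), Csnk1e (-0.32), Hsp90ab1 (0.077) and Stat3 (-0.17), none called except Csnk1e. The 3 arrays a time and dim probes limit what can be shown: the 4298 dimmest genes had a median signal of 161 units against a local background of 37 to 45.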

Other observations

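Odorant, vomeronasal and taste receptor genes, a group chosen after its values were seen, were higher at 9 h as a body. Of 167 tested 95 rose and 4 fell (56.9% higher against 13% of all genes), with a median of 0.80. The median was 0.63 with quantile scaling, 0.60 with median scaling and 1.08 after normexp, where 38 rose. Of these genes 103 were among the 4298 dimmest, of which the other 4195 had a median of 0.20. The median level of the group was -3.32 at 0.5 h, -3.36 at 3 h, -3.69 at 6 h and -2.54 at 9 h. Several further dim genes had the same course, with a 6 h mean below that of 3 h and 9 h above both: Sox11, Ecel1, Ano7, Mpp2, Bdkrb1 and Kcng4.

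Detection itself was unequal between the times. Of 35287 gene names, 505 were well above background on all 9 h arrays and on no 3 h array, 103 of them chemosensory receptors, and 25 the other way round, 3 of them chemosensory. Chemosensory receptors were 3.40% of all gene names.

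A pair of genes alternated along the course. S100b, a calcium-binding protein of glia, was at 0.10, 0.10 and 0.01 at 3 h and at 0.33, 0.27 and 0.03 at 9 h, a difference of 0.14 that was not called (adjusted p = 0.326). It was higher at 0.5 h (1.17, 1.00 and 1.14) and at 6 h (1.23, 1.01 and 1.31). Gclm, which serves glutathione synthesis, had means of -6.29 at 3 h and -5.75 at 9 h against -3.93 at 0.5 h and -3.74 at 6 h. Its difference of 0.54 between 3 and 9 h (adjusted p = 0.0250) was not called with any of the 4 other scalings or background corrections (-0.040 with quantile scaling) and was lost without 3 h replicate 1 or 3 or 9 h replicate 1 or 2 (values 0.42 to 0.64, adjusted p up to 0.0849). The 3 h and 6 h arrays share a scan day but not a slide.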
